A study of Mus musculus with 6 samples.

Results

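Alanine nuclear tRNAs are the tRNAs that carry alanine to cytosolic ribosomes, and their small RNA reads were compared between Elac2 knockout and control mouse hearts. The members were the rows of the deposited small RNA table typed as mature or precursor tRNA and named for alanine. There were 85 of them among 30638 features, 37 mature and 48 precursor, and the table also held 654 nuclear tRNA features of other isotypes. A mature feature is named by anticodon and sequence family (AGC-2), and a precursor feature also by gene copy (AGC-2-1).

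The knockout group held 3 C57BL/6 mice titled L/L, cre and labelled Elac2 -/-, in which a loxP-flanked exon of Elac2 was excised by cre from the muscle creatinine kinase promoter. The control group held 3 C57BL/6 mice titled L/L, without cre and labelled Elac2 +/+. Total RNA of crude hearts was sequenced as inserts of 15 to 100 nt, with 1 library per mouse in the table. No age or sex is stated in the labels. The promoter is active in striated muscle, so the other cell types of the heart are not targeted by this cre, and the RNA holds both kinds of cell. Total counts lay between 13510061 and 16248673 per library. The labels were not checked against the level of Elac2 itself, since small RNA libraries do not measure its mRNA.

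Elac2 encodes RNase Z, which cuts the 3′ trailer from tRNA precursors in nucleus and mitochondria alike, after RNase P has in general cut the 5′ leader. The CCA end is then added and alanine is attached by alanyl-tRNA synthetase, which recognises a G:U wobble pair in the acceptor stem that alanine tRNAs share. The anticodon AGC, whose first base is changed to inosine in the mature tRNA, reads several alanine codons, while TGC and CGC read those that end in A or G. Fragments from the 5′ side of alanine tRNAs, which start with a run of G, are known from human cells as stress-induced small RNAs that can reduce translation. Inserts of 15 to 100 nt can come from whole tRNAs or from such fragments, and the counts do not tell them apart.

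In RefSeq's annotation of GRCm38.p6, read by the anticodon in the gene symbol, 33 nuclear alanine tRNA genes are listed, 13 for AGC, 9 for CGC and 11 for TGC. Of these, 12 lie on chromosome 13 and 12 on chromosome X, and the rest lie on chromosomes 2, 3, 4, 5, 11 and 19. AGC genes are mostly on chromosome 13, with 9 of 13 there, while 7 of 11 TGC genes and 5 of 9 CGC genes are on the X chromosome. Their lengths are 72 or 73 nt, so a whole mature alanine tRNA fits the insert range. The symbols do not match the feature names in the table, so no position is given to a single feature. The mitochondrial alanine tRNA, mt-Ta, serves here as the alanine tRNA of the other compartment and is shown because its reads moved opposite to those of the abundant nuclear forms. It lies at chrM:5018-5086 on the minus strand (GRCm38, GENCODE M21, 69 nt), with the anticodon TGC in capitals, at positions 31 to 33 from the 5′ end.
mt-Ta: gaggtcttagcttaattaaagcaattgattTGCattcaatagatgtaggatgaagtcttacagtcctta

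Of the 85 members, 40 had 0 counts in all 6 libraries, 15 of them mature and 25 precursor, and all 4 mature and 4 precursor features of the anticodon GGC were among these. The edgeR filter on low counts (a minimum of 10 counts in enough libraries) kept 10 mature and 3 precursor features, and left out 12 mature and 20 precursor features that had counts. A feature can pass this filter through the group in which it is high, so counts over the tested features describe them and are no support for a direction. Mature AGC-3 and AGC-1, precursor TGC-1-1 and the sum of AGC precursors passed in this way, each with a control library under 10 counts. So did the CGC precursors without CGC-2-1, a subset given below, with every control library under 10 counts. Their calls are to be read with the same limit. Copies of a tRNA are near-identical, and no source used here says how reads that align to several copies were counted. Values of single features are therefore uncertain, and sums per anticodon and form are given first.

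Summed reads of the mature AGC and TGC alanine tRNAs were several times higher in knockout hearts. The CGC sum was lower, a call that was lost in several settings given below. A single feature carried most of each sum, and the other features did not all move with it. Values are in CPM, counts-per-million of the library total after TMM scaling. The mature AGC sum was 110.0, 125 and 102.5 CPM in knockout replicates 1 to 3, against 15.1, 18.7 and 22.2 CPM in control replicates 1 to 3. The groups did not overlap, and the log2 fold change of knockout over control was 2.59 (SE 0.21, adjusted p = 2.46e-06 by edgeR's quasi-likelihood test, n = 3 per group), a 6.02-fold difference. The mature TGC sum was 94.2, 110.2 and 92.1 CPM in knockout libraries and 11.4, 10.3 and 11.9 CPM in control libraries. Its log2 fold change was 3.14 (SE 0.20, adjusted p = 4.14e-07), or 8.84-fold, and every knockout library lay above every control library. The mature CGC sum was 9.73, 6.88 and 8.27 CPM in knockout libraries and 15.3, 12.0 and 14.1 CPM in control libraries. It fell by 0.73 on the log2 scale (SE 0.22, adjusted p = 0.0161), again with no overlap. Of the 998 entries fitted together (sums and all other RNAs), 51.3% were called, 23.1% higher and 28.2% lower, at an adjusted p under 0.05. With RNA of a mixed tissue, a change in the number of cells of a type and a change in RNA per cell cannot be told apart.

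The CGC call did not survive the loss of any knockout library. The log2 fold change was -0.65 without replicate 1, -0.39 without replicate 2 and -0.55 without replicate 3, with adjusted p-values of 0.0606, 0.298 and 0.104 by edgeR. It was made without each control replicate. The calls of AGC and TGC were made without each library, with log2 fold changes of 2.53 to 2.86 and of 3.05 to 3.39.

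The feature that carried most of each sum was AGC-2, TGC-1 or CGC-5. AGC-2 held 89.1% ± 2.08 of the mature AGC counts in knockout libraries and 72.8% ± 2.72 in control libraries (SD, n = 3). It had 99.0, 113.5 and 88.9 CPM in knockout libraries and 10.9, 13.2 and 16.8 CPM in control libraries, and rose by 2.88 on the log2 scale (SE 0.23, adjusted p = 2.27e-06). TGC-1 held 97.2% ± 0.585 of the mature TGC counts in knockout and 83.0% ± 6.09 in control libraries. Its level was 91.0, 107.8 and 89.5 CPM in knockout libraries and 8.64, 8.95 and 10.2 CPM in control libraries, and it rose by 3.37 on the log2 scale (SE 0.20, adjusted p = 4.51e-07). Raw counts behind these levels were 1182 to 1435 for AGC-2 and 1190 to 1363 for TGC-1 in knockout libraries, against 168 to 308 and 133 to 187 in control libraries. CGC-5 held 63.4% ± 3.79 of the mature CGC counts in knockout and 86.1% ± 2.64 in control libraries. It had 5.81, 4.35 and 5.57 CPM in knockout libraries and 13.4, 9.96 and 12.4 CPM in control libraries, and fell by 1.18 on the log2 scale (SE 0.23, adjusted p = 0.00106). Under snRNA and rRNA factors the fall of CGC-5 was not called (-0.64, adjusted p = 0.111).

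Families of the same anticodon did not all move alike. CGC-2 had 3.70, 2.37 and 2.56 CPM in knockout libraries and 1.75, 1.80 and 1.58 CPM in control libraries, and rose by 0.75 on the log2 scale (SE 0.28, adjusted p = 0.0436). DESeq2 did not make that call (adjusted p = 0.113), nor did edgeR without knockout replicate 1 (adjusted p = 0.0785), control replicate 2 (0.0756) or control replicate 3 (0.142). It was also lost with total counts alone (0.42, adjusted p = 0.267) and with miRNA factors (0.57, adjusted p = 0.141), and the sign turned with snoRNA and scaRNA factors (-0.10). AGC-3 was low but clearly separated, with 3.48, 4.11 and 4.06 CPM in knockout libraries against 0.520, 0.732 and 0.546 CPM in control libraries (log2 fold change 2.68, SE 0.29, adjusted p = 2.10e-05). AGC-1 rested on fewer reads still, with 16, 15 and 16 counts in knockout libraries and 0, 3 and 7 in control libraries, and was also called higher (log2 fold change 2.57, SE 0.59, adjusted p = 0.00337). It passed the filter on low counts only through the knockout libraries, so this call is no support for a direction. Its size rested on control replicate 3, without which the log2 fold change was 3.57, and it lay between 2.14 and 3.57 with a library left out, called each time.

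The other tested mature families were not called. AGC-4 had 2.54, 1.90 and 3.46 CPM in knockout libraries and 1.75, 2.03 and 2.40 CPM in control libraries, and the groups overlapped (log2 fold change 0.35, adjusted p = 0.345). TGC-4 had 2.90, 2.29 and 2.48 CPM in knockout libraries and 2.66, 1.13 and 1.42 CPM in control libraries, with control replicate 1 inside the knockout range (log2 fold change 0.57, adjusted p = 0.184). Without control replicate 1, the log2 fold change of TGC-4 was 1.08 (adjusted p = 0.00502). Neither AGC-6 nor AGC-12, named after their values were seen, was called, with log2 fold changes of 0.53 and 0.40. In all, 5 of the 10 tested mature features rose, 1 fell and 4 were not called. Their median log2 fold change was 0.66, beside -0.01 over all 1144 features tested, of which 50.2% were called, 23.2% higher and 27% lower. The knockout libraries lay all above the control libraries in 6 of the 10 and all below in 1, beside 29.4% and 33.7% of all features. Among all 124 tested mature tRNA features, alanine included, 12.1% were called higher and 38.7% lower. Among the 114 tested mature features of other isotypes 10 rose and 47 fell, with a median of -0.50.

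**Figure D1:**
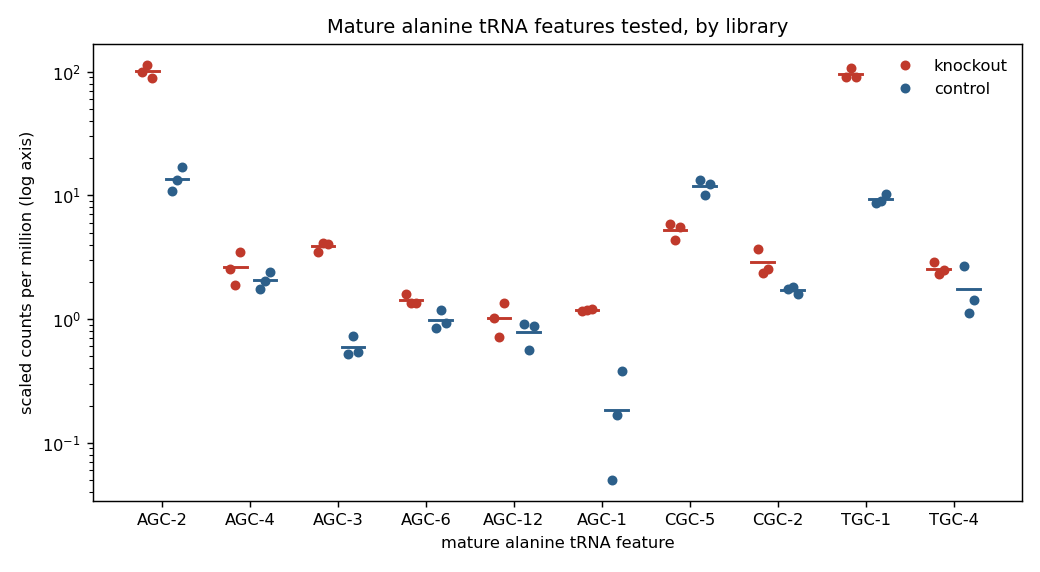
Level in CPM (log axis) of the 10 mature alanine tRNA features tested, with 1 point per library, knockout left of control, and a bar at each group mean; a value of 0 is drawn at 0.05. AGC-2 and TGC-1 stand near 100 CPM in knockout libraries and near 10 CPM in control libraries, and CGC-5 is lower in knockout libraries.

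Sums without the most abundant feature of each anticodon, an alternative chosen after seeing the data, show how far the change extends beyond it. Without AGC-2, the AGC sum was 12.1 ± 1.33 CPM in knockout hearts and 5.03 ± 0.704 CPM in control hearts (SD, n = 3 per group; log2 fold change 1.27, adjusted p = 4.89e-04). Without TGC-1, the TGC sum was 2.76 ± 0.388 against 1.91 ± 0.727 CPM and was not called (log2 fold change 0.54, adjusted p = 0.184). Without CGC-5, the CGC sum was 3.05 ± 0.757 against 1.89 ± 0.175 CPM, a log2 fold change of 0.69 that was not called (adjusted p = 0.0644) and had the opposite sign to the full sum.

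The balance between the anticodons, which needs no scaling between libraries, shifted away from CGC. The count ratio of mature AGC to mature CGC was 11.3, 18.2 and 12.4 in knockout libraries, against 0.987, 1.56 and 1.57 in control libraries. The ratio of TGC to CGC was 9.68, 16.0 and 11.1 in knockout libraries and 0.742, 0.859 and 0.841 in control libraries. AGC over TGC moved less, with 1.17, 1.136 and 1.11 in knockout libraries and 1.33, 1.82 and 1.87 in control libraries. On the log2 scale (counts plus 0.5) the mean differences of knockout minus control were 3.34, 3.88 and -0.54. None of these 3 ratios overlapped between the groups. Each had an exact permutation p of 0.1 (two-sided), below which a comparison of 3 with 3 cannot go, and 0.114 when adjusted over the 8 shares and ratios tested. Of all mature alanine counts, CGC held 3.82% ± 0.883 in knockout and 31.7% ± 4.27 in control hearts, TGC 45.0% ± 0.819 and 25.6% ± 1.35, and AGC 51.2% ± 0.610 and 42.6% ± 5.6 (SD, n = 3 each).

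Among mature nuclear tRNAs, alanine took a much larger share of the reads in knockout hearts. The alanine share of mature tRNA counts was 4.53%, 5.73% and 3.24% in knockout libraries, against 0.161%, 0.146% and 0.138% in control libraries (30.3-fold by the means, exact two-sided permutation p = 0.1, n = 3 per group). Mature tRNA counts of all isotypes were 53514 to 83259 in knockout libraries and 400735 to 637451 in control libraries, so much of this fold lies in the denominator. Glycine and glutamate, ranked 1 and 2 by level in control hearts, averaged 21036 and 6092 CPM there. In knockout hearts they averaged 3211 and 456 CPM. The alanine share without them was not tested. As a share of all counts of the library, mature alanine tRNAs held 0.0195% ± 0.00124 in knockout and 0.00493% ± 0.000536 in control hearts, a 3.95-fold difference. Alanine precursors held 3.66%, 4.35% and 4.08% of the precursor tRNA counts in knockout libraries and 5.99%, 7.14% and 5.57% in control libraries. This share was lower in every knockout library (0.647-fold by the means, exact two-sided permutation p = 0.1, n = 3 per group). Precursor tRNA counts of all isotypes were 6904 to 8250 in knockout libraries and 4277 to 6787 in control libraries. Part of the lower share thus lies in the denominator. Of all counts, alanine precursors held 0.00202% ± 0.000113 in knockout and 0.00227% ± 0.000343 in control hearts (0.887-fold, exact two-sided permutation p = 0.3).

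**Figure D2:**
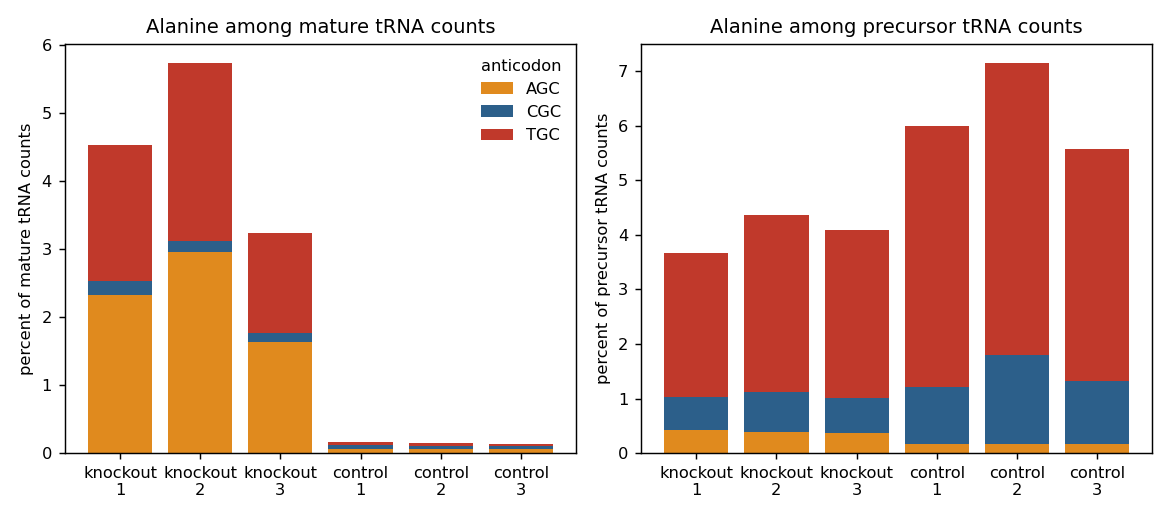
Percent of mature (left) and precursor (right) tRNA counts held by alanine features in each library, knockout libraries left of control libraries, stacked by anticodon. Alanine holds over 3% of mature tRNA counts in each knockout library, with little of it from CGC, and under 0.2% in each control library, while its share of precursor counts is lower in knockout libraries.

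Summed over anticodons, mature alanine tRNAs averaged 220 ± 20.3 CPM in knockout and 43.7 ± 3.87 CPM in control hearts (SD, n = 3 each). By level, alanine ranked 4 of 22 isotypes in knockout and 12 of 22 in control hearts. Its log2 ratio of means, 2.33, was the highest of the 22 isotypes, of which 5 lay above 0, and the next was asparagine with 0.40. Among 47 mature anticodon sums tested, TGC and AGC ranked 1 and 2 by log2 fold change and CGC ranked 26. The 44 outside alanine had a median log2 fold change of -0.69 and a highest value of 1.27, and 2 of them rose and 26 fell. With the mature counts outside alanine as library size, the log2 fold changes were 5.80 (SE 0.36) for TGC, 5.26 (SE 0.35) for AGC and 1.88 (SE 0.34) for CGC, with adjusted p = 1.45e-35, 9.38e-33 and 2.32e-07 by edgeR. On that scale 89.4% of 47 anticodon sums were called, 87.2% higher and 2.13% lower, so the call of CGC says little. Its library size holds mature glycine tRNAs, at 3211 CPM in knockout and 21036 CPM in control hearts. It also holds those of glutamate, at 456 and 6092 CPM, so all 3 values are relative to falling isotypes. With TMM factors within the mature form the log2 fold changes were smaller, 3.75 for TGC and 3.18 for AGC, both called, and -0.12 for CGC (adjusted p = 0.667).

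**Figure D3:**
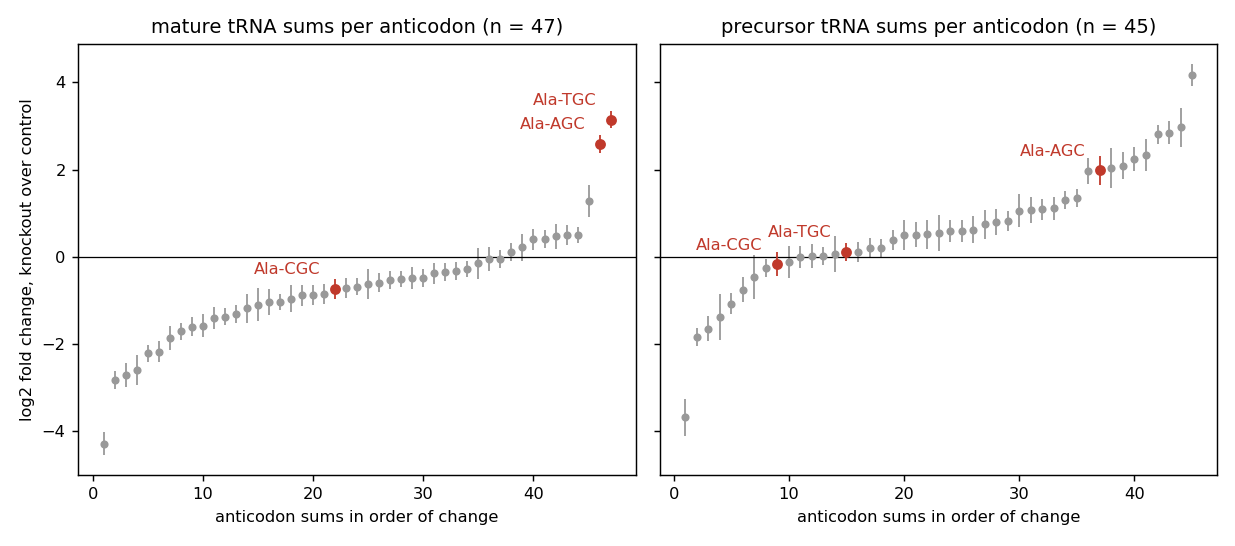
Log2 fold change (knockout over control, with SE bars) of every tested anticodon sum in order, for mature (left, n = 47) and precursor (right, n = 45) tRNAs, with the alanine sums in red. Mature TGC (3.14) and AGC (2.59) stand above every other mature sum, while among precursors AGC (1.98) ranks 9 and TGC and CGC lie near 0.

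Among the precursors, the AGC sum was called higher in knockout hearts, and the TGC and CGC sums were not called. The AGC call has the limit of the filter given above in each test, since control replicate 1 had only 7 counts. AGC precursors had 35, 28 and 26 counts in knockout libraries and 7, 10 and 12 in control libraries (2.24 ± 0.293 against 0.558 ± 0.1004 CPM). The groups did not overlap, and AGC precursors rose by 1.98 on the log2 scale (SE 0.34, adjusted p = 4.14e-04), or 3.95-fold. TGC precursors had 217, 236 and 212 counts in knockout libraries and 204, 311 and 288 in control libraries, and overlapped on the CPM scale (16.8 ± 1.63 against 15.5 ± 2.14 CPM; log2 fold change 0.11, adjusted p = 0.655). CGC precursors had 50, 54 and 44 counts in knockout libraries and 45, 95 and 78 in control libraries (3.74 ± 0.489 against 4.18 ± 1.21 CPM; log2 fold change -0.17, adjusted p = 0.636). Of the 42 precursor anticodon sums outside alanine, 17 rose and 6 fell, with a median of 0.57. Against precursor counts outside alanine, AGC was higher (log2 fold change 1.164, SE 0.22, adjusted p = 9.08e-04), and CGC (-0.99, SE 0.21) and TGC (-0.72, SE 0.15) were lower (adjusted p = 0.00161 for both). On that scale 64.4% of 45 sums were called, 26.7% higher and 37.8% lower. Its library size holds the aspartate precursors, at 132 CPM in knockout and 7.29 CPM in control hearts. It also holds the serine precursors, at 109 and 19.2 CPM, so the lower calls are relative to rising precursors.

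The TGC and CGC precursor sums were dominated by 1 abundant feature each, and some of the less abundant copies moved apart from it. TGC-2-1 was the most abundant alanine precursor, with 167, 175 and 166 counts in knockout libraries and 185, 294 and 260 in control libraries. Its level was 12.8 ± 0.903 CPM in knockout and 14.3 ± 2.27 CPM in control hearts (log2 fold change -0.15, SE 0.21, adjusted p = 0.559). CGC-2-1 had 34, 35 and 26 counts in knockout libraries and 43, 91 and 71 in control libraries. Its CPM values were lower in every knockout library, and it was not called (log2 fold change -0.72, SE 0.29, adjusted p = 0.0587). Without control replicate 1 it was called lower (-0.83, adjusted p = 0.0125). TGC-1-1, in contrast, had 26, 44 and 32 counts in knockout libraries and 6, 10 and 8 in control libraries, and rose by 2.45 on the log2 scale (SE 0.37, adjusted p = 1.92e-04). These 3 were the tested alanine precursors, 1 called higher and 0 lower, beside 37.7% higher and 12.3% lower among all 114 precursor features tested.

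Without TGC-2-1, the TGC precursors had 50, 61 and 46 counts in knockout libraries and 19, 17 and 28 in control libraries (log2 fold change 1.67, adjusted p = 6.11e-04). TGC-1-1 held 26, 44 and 32 of these counts in knockout libraries and 6, 10 and 8 in control libraries. TGC-4-1 had 15, 9 and 9 counts against 6, 4 and 13, and TGC-3-1 had 9, 8 and 4 against 6, 3 and 7. Both overlapped between the groups and were named after their values were seen. Without CGC-2-1, the CGC precursors had 16, 19 and 18 counts in knockout libraries and 2, 4 and 7 in control libraries (log2 fold change 2.38, adjusted p = 7.98e-04). Every control library was under 10 counts, so this subset passed the filter only through the knockout libraries. Its call is no support for a direction. These subsets were chosen after the data were seen, so their p-values do not carry the weight of the full sums. TGC-2-1 made up 76.5% ± 2.12 of the TGC precursor counts in knockout and 91.8% ± 2.35 in control libraries, and CGC-2-1 64.0% ± 4.51 and 94.1% ± 2.69 of the CGC ones (SD, n = 3).

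**Figure D4:**
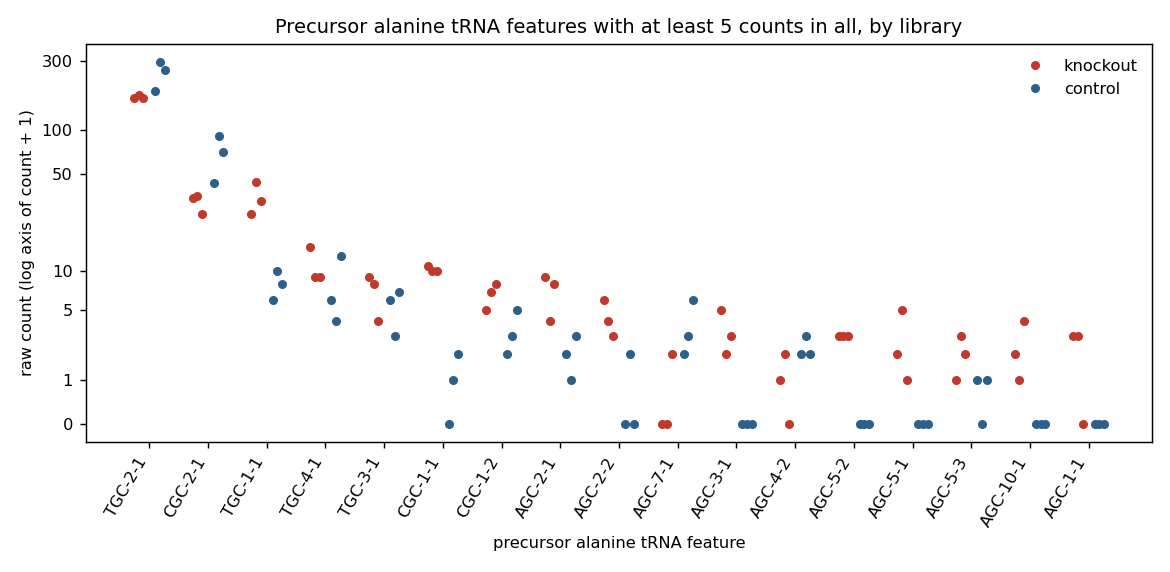
Raw counts (log axis of count + 1) of the alanine precursor features with at least 5 counts in all, 1 point per library, knockout left of control. TGC-2-1 and CGC-2-1, with the most counts over all 6 libraries, are not raised in knockout libraries, while TGC-1-1 and CGC-1-1 are raised, and several AGC copies are at 0 in every control library.

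Most of the remaining precursors were too rare to test. The 20 left out by the filter had 1 to 56 counts over all libraries, and together 75, 64 and 58 in knockout libraries and 22, 21 and 39 in control libraries. Of these, 17 had more counts in knockout libraries and 3 fewer. The same direction is not given here for rare precursors of other isotypes, so these counts are no result about alanine precursors. Among the 111 tested precursors of other isotypes, 42 rose and 14 fell. The features named next were chosen after their values were seen. CGC-1-1 had 11, 10 and 10 counts in knockout libraries and 0, 1 and 2 in control libraries. AGC-2-1, a copy of the family with the abundant mature form, had 9, 4 and 8 against 2, 1 and 3 counts. There were 9 precursors with 0 counts in every control library and a count in a knockout library, of which 4 had counts in all 3 knockout libraries. They were AGC-3-1 (5, 2 and 3 counts), AGC-5-2 (3, 3 and 3), AGC-5-1 (2, 5 and 1) and AGC-10-1 (2, 1 and 4). Set against 3 counts over the control group, the 95% upper limit for 0 counts, the ratios after scaling were 4.32, 3.89, 3.46 and 3.02. The knockout counts were taken as observed, with their own counting error not included, so these are not lower limits. Because the features were picked for this pattern, its direction was fixed by the choice. The share of all features with the pattern was not counted. In the authors' deposited DESeq2 comparison, AGC-3-1, AGC-5-2 and AGC-5-1 had adjusted p-values of 0.0582, 0.0711 and 0.102, and AGC-10-1 had none. AGC-7-1 went the other way, with 0, 0 and 2 counts in knockout libraries and 2, 3 and 6 in control libraries.

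Mature and precursor features can be matched by family name, and 14 of 38 families had counts in both forms. In TGC-1 both forms were called higher, the mature one by 3.37 and the precursor by 2.45 on the log2 scale. The AGC-2 family had 3980 mature and 34 precursor counts over the knockout libraries, against 711 and 8 over the control libraries. AGC-3 had 154 mature and 10 precursor counts in knockout against 31 and 0 in control libraries, and AGC-5 had 34 and 23 against 2 and 2. In CGC-2 the mature form had 115 raw counts in knockout and 88 in control libraries, and its precursor 95 and 205. The mature call was lost in several settings, as given above, and the precursor was not called (adjusted p = 0.0587 by edgeR). AGC-4 was low and level in both forms, with 105 mature and 5 precursor counts in knockout and 107 and 8 in control libraries.

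In some families the counts lay almost wholly in 1 form. CGC-5, with 209 mature counts in knockout and 610 in control libraries, had 0 counts of its precursor feature in all 6 libraries. CGC-1 had 51 precursor counts in knockout and 13 in control libraries, but 1 and 2 mature counts. TGC-3 had 21 and 16 precursor counts and 0 mature ones, and for TGC-2 only the precursor feature was analysed here. In all, 8 families had mature counts only and 3 had precursor counts only. How reads were assigned between forms that share sequence was not tested.

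Within a library, the ratio of precursor to mature TGC counts was 0.167, 0.169 and 0.173 in knockout libraries, against 1.17, 1.70 and 1.33 in control libraries. The 3 knockout values lay close together and far below the control values, with a mean log2 difference of -3.02 (exact two-sided permutation p = 0.1, n = 3 per group). TGC-2-1, for which no mature feature was analysed here, made up most of these precursor counts. Within the TGC-1 family, a comparison chosen after the data were seen and not tested, the ratio was 0.0208, 0.0323 and 0.0269 in knockout libraries and 0.0451, 0.0629 and 0.0428 in control libraries. Those groups did not overlap, and the mean log2 difference was -0.98, smaller than that of the sums. For AGC the ratio was 0.0231, 0.0177 and 0.0191 in knockout libraries and 0.0300, 0.0300 and 0.0296 in control libraries (log2 difference -0.64, exact p = 0.1). For CGC it was 0.373, 0.621 and 0.40 in knockout libraries and 0.191, 0.446 and 0.302 in control libraries, which overlapped (log2 difference 0.62, exact p = 0.3). Adjusted over the 8 shares and ratios tested, the p-values of TGC and AGC were 0.114 and that of CGC 0.300.

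The scaling of the libraries sets the level of every log2 fold change. Over all features the median log2 fold change moved by -0.34 with total counts alone, -0.18 with factors from miRNA genes, -0.84 with snoRNA and scaRNA factors and 0.54 with snRNA and rRNA factors. Of the called features, higher and lower together, 28.3%, 34.7%, 13.3% and 64.4% were higher in that order, beside 46.2% with TMM factors. Over these and DESeq2 size factors, mature TGC lay between 2.30 and 3.68, mature AGC between 1.74 and 3.16 and precursor AGC between 1.1399 and 2.53, all called. For precursor AGC these calls keep the limit of the filter on low counts. Mature CGC lay between -1.59 and -0.20 and lost its call with factors from snRNA and rRNA genes. The TGC precursor sum was called lower with snoRNA and scaRNA factors (-0.73, adjusted p = 0.0094) and higher with snRNA and rRNA factors (0.67, adjusted p = 0.038). The CGC precursor sum was called lower with the snoRNA and scaRNA factors (adjusted p = 0.00755) and was above 0, not called, with the snRNA and rRNA factors (0.39). Of the tested mature features 4 to 6 were called higher and 0 or 1 lower, beside 101 to 406 higher and 224 to 659 lower of all 1144 features.

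**Figure D5:**
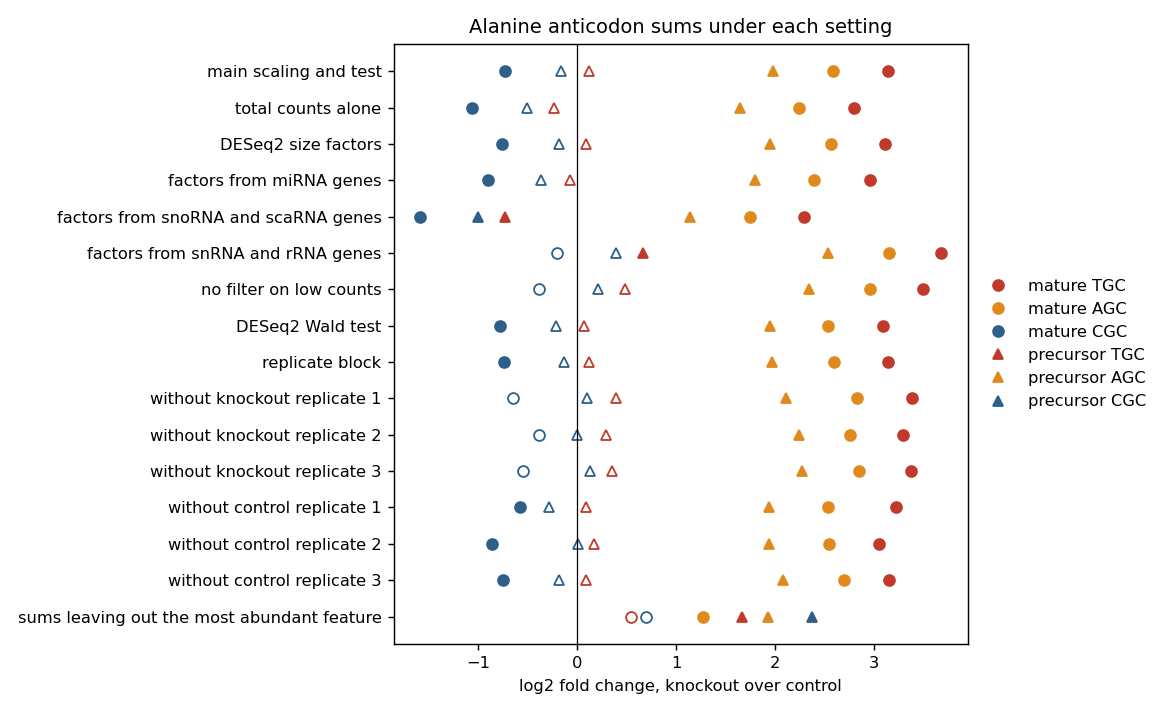
Log2 fold change (knockout over control) of the alanine anticodon sums under each setting, circles for mature and triangles for precursor sums, filled where the adjusted p was under 0.05. Mature TGC and AGC and precursor AGC stay above 0 in every setting, and mature CGC stays below 0 except without its most abundant feature.

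The mitochondrial alanine tRNA mt-Ta, whose sequence is given above, had 167, 119 and 106 counts in knockout libraries and 2264, 4291 and 3901 in control libraries, and fell by 4.35 on the log2 scale (SE 0.27, adjusted p = 5.14e-07). Of 6 other RNA polymerase III products taken as a list (Rn7sk, Rny1, Rny3, Vaultrc5, Rpph1 and Rmrp), 4 fell and 0 rose, beside 27% lower and 23.2% higher among all 1144 features tested. Rn7sk, the RNA of the 7SK particle that holds back transcription elongation, averaged 54.7 ± 17.5 CPM in knockout and 1521 ± 496 CPM in control hearts (SD, n = 3 each). Rpph1, the RNA of RNase P, had 56.0 ± 1.76 against 50.99 ± 8.81 CPM and was not called (log2 fold change 0.14, adjusted p = 0.577), and Rmrp, the RNA of RNase MRP, was not called either (0.43, adjusted p = 0.0691).

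All 7 cardiomyocyte miRNA genes checked had reads, and their summed level was 72626 to 93228 CPM in knockout and 117767 to 147949 CPM in control libraries, with 1 higher (Mir208b) and 2 lower (Mir1a-1 and Mir1a-2). Red cell miRNA genes summed to 2203 to 2920 CPM in knockout and 2643 to 3694 CPM in control libraries, with 1 of 3 higher and 1 lower. The lower gene was Mir486, with means of 1361 CPM in knockout and 2159 CPM in control libraries. Mir144 was higher (90.6 against 50.4 CPM), and Mir451a was not called (1062 against 803 CPM). Leukocyte genes summed to 159 to 193 CPM against 125 to 156 CPM (0 of 5 higher, 1 lower, Mir223 and Mir155 at 0). Smooth muscle and fibroblast genes summed to 23369 to 31250 CPM against 27293 to 34251 CPM, with 1 of 5 higher and Mir199a-2 and Mir214 at 0. Most of this sum was Mir143, with means of 26438 CPM in knockout and 30464 CPM in control libraries, not called. Mir145a was not called either (606 against 722 CPM). The higher gene was Mir199a-1, at 1276 against 737 CPM without overlap (log2 fold change 0.79, adjusted p = 0.00183 by edgeR). Mir126a, the endothelial gene, had 17610 to 20960 CPM against 19520 to 23749 CPM, and Mir206 of skeletal muscle was at 0. The part of cell composition in the alanine tRNA values was not tested.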

How the data were processed

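Each mouse has 1 column of raw counts deposited by the authors, who also deposited their own comparison with log2 fold changes and adjusted p-values. The submitters' processing notes name build mm10, DESeq2 1.16.1, featureCounts 1.5.1, Bowtie2 2.2.9 and cutadapt 1.14. No source used here states the annotation, strand setting, multiple alignments or how the 4 technical replicates per mouse were merged. Deposited normalized counts were not used.

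Counts of all features passing filterByExpr (minimum count 10, minimum total 15) were tested with edgeR 4.0.16 in R 4.3.3 (TMM, glmQLFit, glmQLFTest), and p-values were Benjamini-Hochberg adjusted over the whole table; SE is the log2 fold change over the root of F. Anticodon sums replaced the tRNA rows in a second fit with the same factors. Shares and ratios were compared with exact permutation tests (SciPy 1.17.1). The fits were tested on simulated data. Alternatives were other scalings, no filter, DESeq2 1.42.0, a replicate block and each library left out. Counting floors cover counting error of the control counts only. Replicates are labelled as separate mice.

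Named features were the 3 tested ones with the highest CPM per anticodon and form, up to 3 further called ones per form and direction, all anticodon sums, mt-Ta and isotype sums. Members and lists were chosen with earlier results of these data known.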

Additional observations from a re-analysis of the deposited data

How the results depend on the processing

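Of 200 alternative values of 20 sums, shares and ratios, 180 kept their direction and their side of the threshold, and of 56 alternative values of 4 counts of called features 43 lay within 1.5 times the reported count. The mature CGC sum lost its call with snRNA and rRNA factors (-0.20) and with no filter (-0.38), and lay between -0.86 and -0.39 with a library left out. Leaving out the most abundant feature gave 0.69 for mature CGC, 0.54 for mature TGC, 2.38 for precursor CGC and 1.67 for precursor TGC. The precursor CGC value comes from a subset that passed the filter only through the knockout libraries, and is no support for a direction. The precursor TGC sum was -0.23 with total counts alone, -0.078 with factors from miRNA genes, -0.73 with snoRNA and scaRNA factors (called lower) and 0.67 with snRNA and rRNA factors (called higher). The precursor CGC sum was -1.001 (called lower) and 0.39 with the same last pair of factors, 0.21 without a filter and -0.29 to 0.13 with a library left out. Relative to other mature tRNAs, CGC was -0.12, TGC 3.75 and AGC 3.18 with TMM factors within the form. Precursor features called lower, 0 in the main test, were 1 with total counts alone, DESeq2 size factors or miRNA factors, 2 with snoRNA factors, and 0 to 1 with a library left out. Over all 1144 features, 431, 332, 357 and 659 were called lower with those scalings in that order. Without a filter 9 of 23 precursors were called higher, beside 433 higher and 708 lower of the 9254 features tested in that setting. With any library left out 2 were called higher, beside 225 to 349 higher of the 1168 to 1410 features tested. Mature features called lower were 0 with snRNA and rRNA factors. With snoRNA factors 5 mature features turned negative, none called: AGC-12 (-0.45), AGC-4 (-0.50), AGC-6 (-0.31), CGC-2 (-0.10) and TGC-4 (-0.28). Precursor TGC-2-1 was 0.40 with snRNA and rRNA factors, 0.21 without a filter and -0.19 to 0.12 with a library left out. Without a knockout library the median of all features moved by 0.21 to 0.24. These causes were not tested.

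Same-numbered libraries did not deviate together (correlations -0.13, -0.02 and -0.19), so the replicate block does not pair mice. With it, mature TGC was 3.14, mature AGC 2.60, mature CGC -0.74 and precursor AGC 1.97, all called, and CGC-2 lost its call (0.73, adjusted p = 0.0595). Precursor sums of 7 to 12 counts in control libraries and features with a few counts limit what this depth can show.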

Other observations

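The rare mature alanine features together had 24, 36 and 33 counts in knockout libraries and 7, 23 and 10 in control libraries. Of 12 left out by the filter, with 2 to 38 counts over all libraries, 5 had more counts in knockout libraries, 3 had fewer and 4 had equal totals. AGC-5 had 6, 17 and 11 counts in knockout libraries against 0, 2 and 0 in control libraries, and AGC-7 had 3, 5 and 14 against 3, 12 and 1. Both were named after their values were seen.

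In the authors' deposited table, 28 of the 85 alanine features had an adjusted p-value and 8 were under 0.05, 7 higher and 1 lower. The share of all features under 0.05 there was not counted, so these counts are no result about alanine tRNAs. Of the 7 features called by edgeR here, 6 were among the 8 in the authors' deposited table. CGC-2 was not, with an adjusted p of 0.126 in the authors' deposited table. Mature AGC-5 (log2 fold change 4.53, adjusted p 0.00437) and precursor CGC-1-1 (3.81, adjusted p 0.00626) had adjusted p-values under 0.05 in the authors' deposited table but did not pass the filter used here.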
